A study of Mus musculus with 9 samples.

Results

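Whole kidneys of wild-type mice taken 14 days after ischemia-reperfusion injury (IRI) were compared with whole kidneys of sham-operated wild-type mice, across all expressed genes. The comparison takes 6 of the 9 libraries of the series by their labels, 3 from injured and 3 from sham kidneys. The other 3 libraries, from injured kidneys that lack Pfkfb3 in proximal tubular cells, were not compared here. They did enter the filter on low counts, the scaling of libraries and the shared estimate of spread. All 6 libraries compared carry the genotype PFKFB3 WT, and the design text calls the wild-type animals littermate controls of the conditional knockout. Injury was made under anaesthesia by clamping both renal arteries for 30 min. The sham label names no day after the operation, and the sources used here do not give strain, sex, age or the Cre driver of the litters. Whether each library stands for its own mouse is not stated in the labels. The p-values below set the difference between groups against the spread of libraries within groups, and part of that spread may be technical. They therefore do not extend to mice in general unless each library is its own mouse.

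Ischemia-reperfusion stops the blood supply of the kidney and then restores it, and the proximal tubule, which reabsorbs most of the filtered solutes with energy from fatty acid oxidation, is known as the segment most exposed to it. Surviving tubular cells can lose their specialised features, divide and refill the tubule. Where repair is incomplete, injured epithelium persists beside leukocytes and matrix-producing fibroblasts, and this state is studied as the passage from acute injury to chronic kidney disease.

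RNA was measured as counts per gene, from 16946876 to 17873558 counts in injured and from 18707315 to 19987842 in sham libraries. The first principal component of log2 CPM, the count of a gene scaled to the size of its library, held 83.8% of the variance of the 6 libraries and separated the groups, and the second held 4.6%. Pearson's r across genes was 0.981 to 0.986 within injured, 0.984 to 0.986 within sham and 0.877 to 0.908 between groups, as a description, since genes are not replicates. At least 1 count was found for 22739 to 22790 genes in injured libraries, against 20900 to 21055 in sham libraries. Of 15974 genes tested with edgeR's quasi-likelihood test, 9297 (58.2%) passed a Benjamini-Hochberg adjusted p of 0.05, of which 4708 (29.5% of tested genes) were higher and 4589 (28.7%) lower after injury. At least 2-fold, 2925 genes (18.3%) rose and 1870 (11.7%) fell, and the 2 groups did not overlap in 10681 genes (66.9%). The direction of small changes depends on scaling. CPM here use TMM library sizes, whose factors were 1.26 to 1.35 in injured and 0.863 to 0.904 in sham libraries, and with library size alone the median log2 fold change of all tested genes was 0.57 in place of 0.03, with 8915 genes (55.8%) risen and 1953 (12.2%) fallen. The counts of gene lists below are to be read against these shares, and were given no test of their own.

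Injury shifted the kidney's transcripts from a few very abundant ones towards many scarce ones. Of the 71 genes with a mean above 1000 CPM over the 6 libraries, 5 rose and 62 fell (87.3%), with a median log2 fold change of -1.37. Together these 71 genes held 128160 to 143442 CPM in injured libraries, against 297079 to 352457 CPM in sham libraries, and the groups did not overlap. Of the 4473 genes at 1 to 10 CPM, 1794 rose (40.1%) and 618 fell (13.8%), with a median of 0.42. Genes at 10 to 100 CPM were close to balance, with 2168 rises and 2602 falls among 7916. With library size alone the most abundant genes still fell in 54 cases and rose in 9, whereas the 1777 genes at 100 to 1000 CPM, of which 269 rose and 1134 fell under TMM, came to 638 rises and 662 falls.

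**Figure D1:**
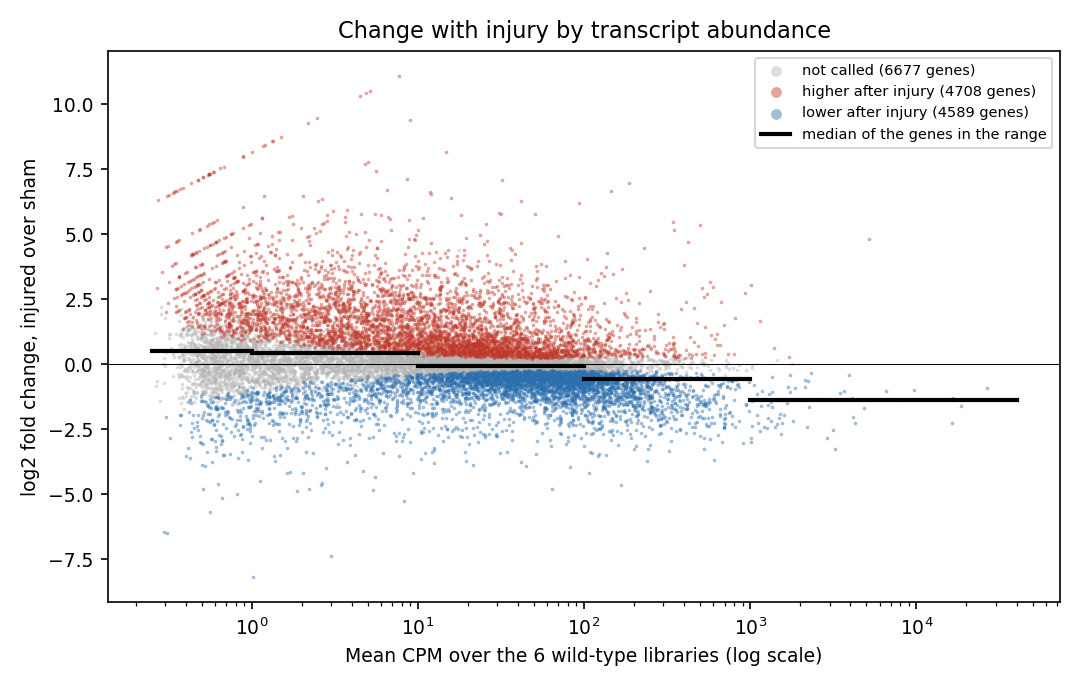
Each point is 1 of the 15974 tested genes, by its mean CPM over the 6 wild-type libraries (log axis) and its log2 fold change, injured over sham, with called rises in red, called falls in blue and the median of each abundance range as a black line. The medians run from 0.51 for genes under 1 CPM to -1.37 for genes over 1000 CPM.

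Osteopontin, the secreted matrix and cytokine-like phosphoprotein encoded by Spp1, showed the largest gain in level per kilobase of exon among called genes whose groups did not overlap. Spp1 (ENSMUSG00000029304, mm10 chromosome 5, 104435118 to 104441050, plus strand) had 9026, 10570 and 10630 CPM in injured kidneys, against 389, 321 and 349 CPM in sham kidneys. Every injured library was far above every sham library, a 28.5-fold rise (log2 4.83, SE 0.322, adjusted p = 5.28e-07), and the transcript made up at most 1.43% of all counts in an injured library, against at most 0.0336% in a sham library. Apoe, the lipid carrier apolipoprotein E made by macrophages and other cells, was also among the 10 largest gains, with CPM per kilobase of 857, 847 and 815 in injured kidneys, against 113, 82.8 and 104 in sham kidneys. Mgp, the inhibitor of soft-tissue calcification matrix Gla protein, rose 8.91-fold, and its 819 to 1297 CPM in injured kidneys stood clear of 82.3 to 156 CPM in sham kidneys. The other genes with the largest gains per kilobase were Cd74, H2-Eb1 and B2m of antigen presentation, Lyz2 of macrophages, the cytoskeletal genes Actb and Tmsb4x, and the antibody light chain Igkc.

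The 10 largest losses per kilobase included genes of the healthy proximal tubule and 6 mitochondrially encoded transcripts. Kap (mm10 chromosome 6, 133849851 to 133853762, minus strand), the androgen-regulated protein of the mouse proximal tubule, had 7486, 7256 and 2410 CPM in injured kidneys, against 32930, 24330 and 23490 CPM in sham kidneys. It fell 4.71-fold (log2 -2.24, SE 0.358, adjusted p = 0.000253), and injured library 3 held less of it than the other 2 injured libraries. Gpx3, the plasma glutathione peroxidase secreted by proximal tubules, had 10220, 9718 and 7748 CPM in injured kidneys, against 30590, 22350 and 30120 CPM in sham kidneys. Cyp4b1, a P450 monooxygenase of the last proximal segment in mice, fell 9.53-fold to 690, 860 and 304 CPM in injured kidneys, against 5331, 5558 and 6786 CPM in sham kidneys. Among the mitochondrial transcripts mt-Cytb, encoding cytochrome b, had 8265, 8277 and 8556 CPM per kilobase in injured kidneys, against 26084, 17885 and 18068 in sham kidneys, with sham library 1 above the other 2. The fall of mt-Co1, a subunit of cytochrome oxidase, was no call with library size alone (log2 -0.35, adjusted p = 0.053). As a share of all counts, mitochondrially encoded transcripts took 6.08, 6.08 and 7.2% in injured libraries, against 11.3, 8.49 and 8.46% in sham libraries. In these whole-kidney samples fewer cells of a type and less RNA per cell cannot be told apart.

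**Figure D2:**
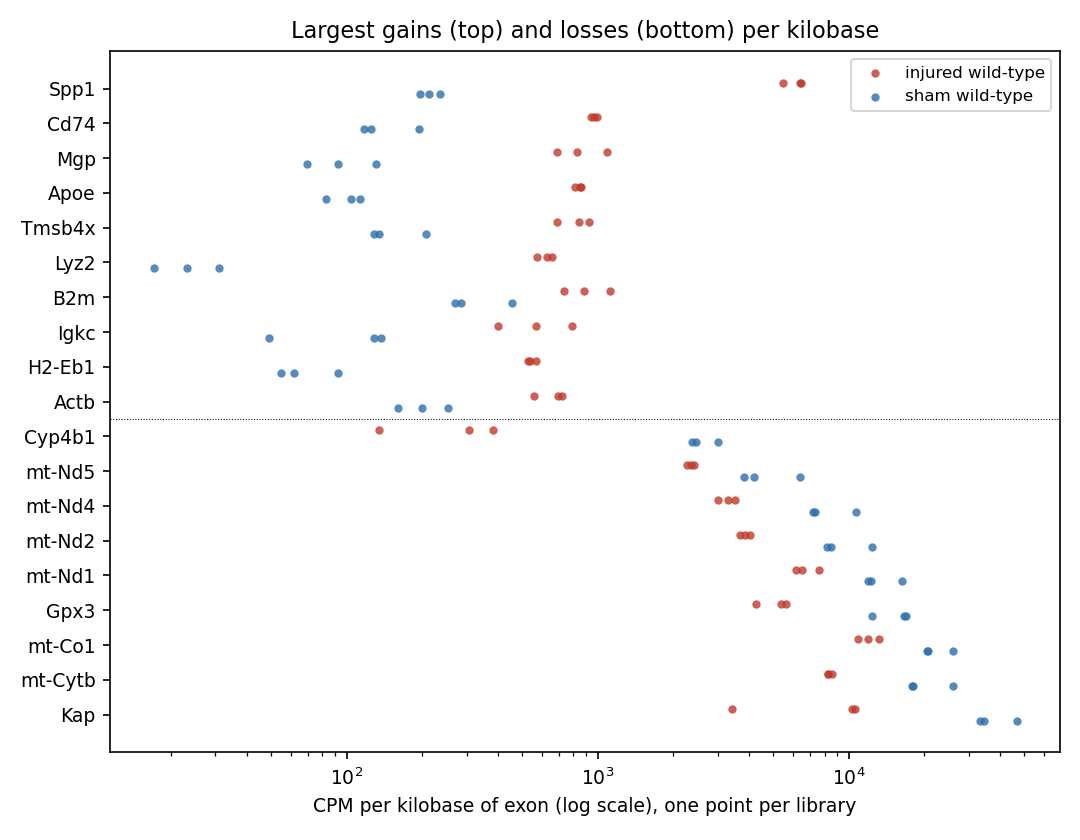
CPM per kilobase of exon (log axis) of the 10 genes with the largest gains and of 9 of the 10 with the largest losses, 1 point per library, injured wild-type in red and sham wild-type in blue. Spp1 lies at 5477 to 6450 in injured and 195 to 236 in sham libraries, and Kap at 3409 to 10588 in injured and 33225 to 46577 in sham libraries.

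Promoters of 4 of the genes described here are printed because they carry, within 150 bases before the RefSeq start, a match to a motif that was searched in all promoters. Spp1, B2m, Mmp7 and Kap were chosen for this after their values were seen, the first 3 risen and the last fallen. Sequences are from RefSeq on GRCm38.p6, 5′ to 3′ on the gene's strand, with the match in capitals: the PU.1 motif GAGGAAGT in Spp1 (chr5:104434961-104435110, plus strand), the consensus kB motif, read on the opposite strand, in B2m (chr2:122147537-122147686, plus strand), the AP-1 motif TGANTCA in Mmp7 (chr9:7691940-7692089, plus strand) and the TATA box TATAAA in Kap (chr6:133853668-133853817, minus strand).
Spp1: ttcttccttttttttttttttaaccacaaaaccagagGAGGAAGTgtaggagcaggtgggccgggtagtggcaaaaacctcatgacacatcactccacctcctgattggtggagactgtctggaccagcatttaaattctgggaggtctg
B2m: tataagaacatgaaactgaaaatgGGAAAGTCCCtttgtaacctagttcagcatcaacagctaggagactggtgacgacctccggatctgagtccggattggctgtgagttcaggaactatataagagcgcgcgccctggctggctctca
Mmp7: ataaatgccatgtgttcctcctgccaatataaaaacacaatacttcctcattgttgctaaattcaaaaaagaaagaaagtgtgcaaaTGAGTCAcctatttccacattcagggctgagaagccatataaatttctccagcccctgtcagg
Kap: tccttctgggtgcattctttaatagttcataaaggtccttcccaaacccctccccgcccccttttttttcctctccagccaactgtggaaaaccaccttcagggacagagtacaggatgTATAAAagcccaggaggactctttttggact
The matches begin 113, 126, 63 and 31 bases before the start of Spp1, B2m, Mmp7 and Kap. In windows from 250 bases before to 50 after the start, searched on both strands, the PU.1 motif was in 4.88% of 2643 promoters of genes that rose at least 2-fold, in 2.49% of 1686 promoters of genes that fell at least 2-fold and in 3.14% of all 14896 promoters of tested genes. The kB motif was in 1.1%, 0.534% and 0.443% of the same 3 sets, the AP-1 motif in 8.25%, 6.47% and 5.56%, and TATAAA in 10.7%, 10.4% and 7.91%. The consensus interferon-stimulated response element was in 4.99%, 2.91% and 3.25%, and the HNF4 motif CAAAGTCCA in 0.568%, 1.19% and 0.45%. Shares of the other motifs searched follow in the same order. The CCAAT box was in 35.3%, 38.1% and 36.9%, the STAT motif in 8.32%, 6.52% and 7%, and the E2F motif in 2.08%, 1.19% and 1.77%. The HNF1 motif was in 0 promoters, and the ERR and DR1 motifs were each in under 1% of every set. These shares are descriptions, and a match is not a bound site.

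Aoc1, the diamine oxidase that degrades histamine and putrescine, had 315, 299 and 243 CPM in injured kidneys, against 2.76, 3.27 and 2.44 CPM in sham kidneys. The groups did not overlap, and the rise was 101-fold (log2 6.66, SE 0.725, adjusted p = 1.36e-05). Stra6, the membrane receptor for retinol-binding protein, rose 55.7-fold to 98 to 102 CPM in injured kidneys, against 1.44 to 2.08 CPM in sham kidneys. Serpina10, the inhibitor of coagulation factor Xa known as protein Z-dependent protease inhibitor, rose 78.5-fold, and Ltbp2, a latent TGF-beta binding family protein of elastic fibres, 56.9-fold. Without sham library 2 the log2 fold change of Ltbp2 was 6.6 in place of 5.83. Aldh1a2, which makes retinoic acid from retinal, rose 25.1-fold to 78.6, 69.7 and 92.3 CPM in injured kidneys, against 4.16, 2.49 and 2.92 CPM in sham kidneys.

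Steep falls among genes of at least 20 CPM on average included those of Cyp4a12a, a fatty acid hydroxylase of male mouse kidney, and Azgp1, zinc-alpha-2-glycoprotein. Cyp4a12a had 12.4, 13.4 and 12.3 CPM in injured kidneys, against 259, 339 and 362 CPM in sham kidneys, a 25.2-fold fall. Azgp1 had 11, 18.1 and 4.35 CPM in injured kidneys, against 241, 176 and 189 CPM in sham kidneys, an 18.2-fold fall. Hpd of tyrosine breakdown, Slc22a26 of the organic anion carriers, the protease inhibitor Pzp and the medium-chain acyl-CoA synthetase Acsm3 each fell between 13.3- and 15.3-fold, with no overlap between the groups.

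There were 16 genes with at least 1 CPM in every injured library and no count in any sham library, and 0 genes with the reverse pattern. Against a floor of 3 counts over the sham group, which covers counting error only, Mmp7 was at least 156-fold higher, and at least 100-fold higher without injured library 2. Mmp7 (matrilysin, an epithelial matrix metalloprotease) had 4.19, 15.4 and 7.36 CPM in injured kidneys, and its exons overlap AV064505 on the other strand. Sprr2f, a cornified-envelope protein of stratified epithelia, was at least 178-fold higher and the adhesion receptor gene Adgra1 at least 169-fold higher. Cxcl17, a chemokine of mucosal tissues, was at least 85.1-fold higher with 4.97, 4.62 and 5.17 CPM in injured kidneys, and Wnt7a, a Wnt ligand, at least 41.5-fold higher. Meltf, Prss22, Spaca7, Kcnh8, Serpina6, Slco5a1, Clca3b, Naip1, Mir6358, the long non-coding Gm48709 and Retnla of alternatively activated macrophages made up the rest.

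Losses ran through the carriers of the tubule. Of 284 solute carrier genes tested, 57 rose and 157 fell (98 and 107 with library size alone), and of the 30 organic anion and cation carriers of the SLC22 and SLCO families, 6 rose and 22 fell with a median log2 fold change of -1.84. Slc22a6 and Slc22a8, the basolateral organic anion carriers that load drugs and toxins for secretion, fell 5.25- and 5.34-fold. Slc22a8 had 162, 128 and 130 CPM in injured kidneys, against 809, 600 and 835 CPM in sham kidneys. Slco1a1 fell 8.54-fold, and Slc7a13, an amino acid carrier of the last proximal segment, 8.18-fold. Of the 8 aquaporins tested 5 fell and 1 rose. Aqp1, the water channel of proximal tubule and thin limb, fell 4.57-fold to 303, 337 and 282 CPM in injured kidneys, against 1381, 1514 and 1313 CPM in sham kidneys. Lrp2 encodes megalin, the receptor that takes filtered protein back up, and fell most among the 17 tested markers of the first proximal segments, all of which fell. It had 456, 395 and 400 CPM in injured kidneys, against 2196, 2925 and 2782 CPM in sham kidneys. The 31 proximal markers together took 2.42, 2.3 and 1.88% of all counts in injured libraries, against 5.53, 5.2 and 6.02% in sham libraries. Such a share uses no TMM factors and amounts to scaling by library size alone.

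Of 7 tested thin limb markers 4 rose and 2 fell (4 and 1 with library size alone), of 12 thick ascending limb markers 0 rose and 7 fell (1 and 5), and of 10 distal convoluted tubule markers 1 rose and 7 fell (1 and 1). Of 14 intercalated cell markers 8 fell under TMM, headed by Slc26a4 (pendrin, the chloride-bicarbonate exchanger of the base-secreting cell), which fell 3.21-fold to 29.3, 30.8 and 35.4 CPM in injured kidneys, against 100, 90.7 and 116 CPM in sham kidneys. With library size alone 2 intercalated markers fell and 3 rose, and the median moved to -0.04. Of 13 tested connecting tubule and principal cell markers 4 fell and 0 rose under TMM, and with library size alone 2 fell and 5 rose, so no direction holds for that list. Aqp4, a water channel of principal cells, fell 5.8-fold, with 8.09, 3.51 and 18.3 CPM in injured kidneys, against 55.2, 79.7 and 38.7 CPM in sham kidneys, and without injured library 3 its log2 fold change was -3.32 in place of -2.54. Parietal epithelium, the lining of Bowman's capsule, had 5 of 6 markers risen under both scalings. Cldn1, its tight junction claudin, rose 10.7-fold to 157, 165 and 128 CPM in injured kidneys, against 13.1, 15.1 and 13.6 CPM in sham kidneys. Of 19 endothelial markers 2 fell and 0 rose under TMM, and 0 fell and 4 rose with library size alone. The falls were those of Flt1 and Kdr, receptors of vascular endothelial growth factor, and Kdr fell by 1.17 on the log2 scale, a call that ended without injured library 3 or without sham library 1 (log2 -1.07 and -1.09) and with library size alone (log2 -0.62). Of 13 podocyte markers 2 rose, 0 fell and 11 were not called under TMM, with a median log2 fold change of -0.31. With library size alone 3 rose and 0 fell, and the median was 0.24. The largest rise was that of Tcf21, a factor of podocytes and stromal cells, at 5.99-fold.

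**Figure D3:**
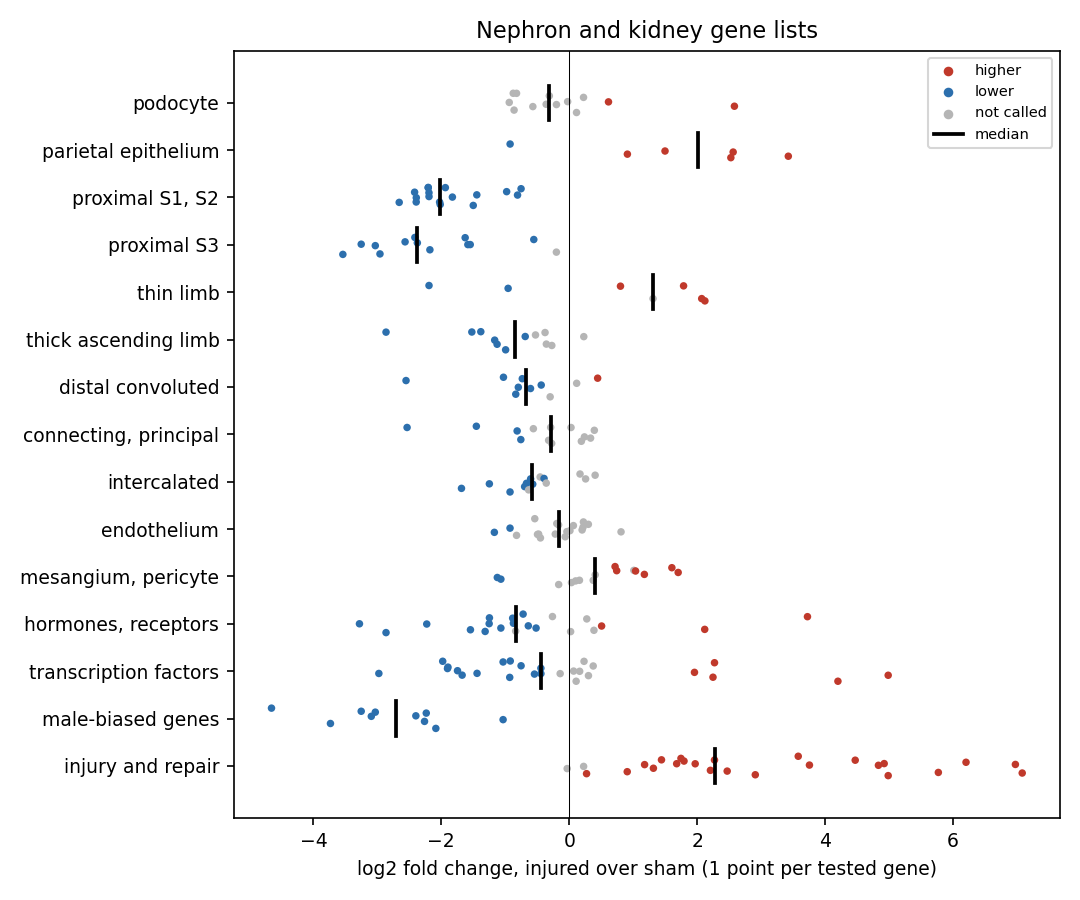
Log2 fold changes, injured over sham, of every tested member of 15 kidney gene lists, with called rises in red, called falls in blue, genes not called in grey and the list median as a black bar. Both proximal lists lie left of 0, with medians of -2.03 and -2.37, and the injury and repair list has a median of 2.27.

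Among the hormones and enzymes through which the kidney acts on the rest of the body, most called genes fell and the activator of vitamin D rose. Cyp27b1, the 1-alpha-hydroxylase that activates vitamin D, had 27.1, 23.4 and 24.1 CPM in injured kidneys, against 1.47, 1.5 and 2.68 CPM in sham kidneys, 13.2-fold higher (log2 3.73, SE 0.325, adjusted p = 2.88e-06). The groups did not overlap. Vdr, the vitamin D receptor, fell 2.37-fold, and Kl, encoding the FGF23 co-receptor klotho, fell 2.92-fold to 285, 203 and 306 CPM in injured kidneys, against 706, 799 and 809 CPM in sham kidneys. Pth1r, the receptor of parathyroid hormone, fell 2.49-fold. Cyp24a1, which inactivates vitamin D, had 49.2, 60.7 and 60.2 CPM in injured kidneys, against 44, 44.6 and 215 CPM in sham kidneys, with sham library 3 far above the other sham libraries and no call (adjusted p = 0.219).

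Egf, the epidermal growth factor made in the thick ascending limb, fell 7.28-fold to 157, 121 and 135 CPM in injured kidneys, against 866, 1220 and 918 CPM in sham kidneys (log2 -2.86, SE 0.194, adjusted p = 5.79e-07). Igfbp1, a binding protein of insulin-like growth factors, fell 9.71-fold. In the renin-angiotensin system Ace, which makes angiotensin II, fell 4.68-fold. Ren1, encoding renin, had 75.5, 40.7 and 88.2 CPM in injured kidneys, against 202, 125 and 102 CPM in sham kidneys (log2 -1.07, adjusted p = 0.0179), a call that ended without injured library 2 (log2 -0.81), without sham library 1 (log2 -0.74) and with library size alone. Agt, the angiotensin precursor, did not pass the test (log2 0.27). Over the whole list of 21 tested hormone and receptor genes 3 rose and 13 fell (6 and 8 with library size alone), the rises being Cyp27b1, the calcitonin receptor gene Calcr and Fgfr1. Epo, encoding erythropoietin, was below the count filter with 0, 0 and 3 counts in injured libraries, against 6, 7 and 4 counts in sham libraries.

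Of 26 tested transcription factors of tubule identity and tubule injury, 5 rose and 14 fell under TMM, and 11 rose and 9 fell with library size alone. Sox9, a factor known from regenerating tubule cells, rose 31.7-fold to 34.3, 70.4 and 33.4 CPM in injured kidneys, against 1.11, 1.55 and 1.67 CPM in sham kidneys (log2 4.99, SE 0.63, adjusted p = 4.21e-05). Injured library 2 held the most. Runx1 rose 18.4-fold, Sox4 4.83-fold, Elf3 4.75-fold and Klf5 3.89-fold. Hnf4a, which drives proximal tubule genes, fell 3.94-fold to 291, 284 and 229 CPM in injured kidneys, against 983, 1070 and 1112 CPM in sham kidneys. Ppara, the nuclear receptor that drives fatty acid oxidation genes, fell 7.87-fold, with 5.79, 6.4 and 3.27 CPM in injured kidneys, against 17.9, 42.7 and 61.1 CPM in sham kidneys. Klf15, a factor that follows glucocorticoids and fasting, fell 3.74-fold. Pax2 and Pax8, factors of the whole nephron, did not pass the test, with log2 fold changes of 0.23 and 0.30 under TMM and 0.78 and 0.85 with library size alone.

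Amino acid breakdown, glucose production and fatty acid oxidation fell in most of their tested genes under both scalings, whereas glycolysis and one-carbon metabolism did not. Of 34 genes of glycolysis and the pentose phosphate pathway 11 rose and 13 fell under TMM, and 20 rose and 6 fell with library size alone. Of 28 tested one-carbon, serine and nucleotide genes 9 rose and 11 fell, and 14 rose and 6 fell with library size alone. Of 36 tested enzymes of amino acid breakdown 33 fell and 1 rose, with a median of -1.58, and 27 fell and 2 rose with library size alone. Hpd fell most, to 5.66, 7.11 and 4.18 CPM in injured kidneys, against 107, 69.6 and 76.2 CPM in sham kidneys. Ass1, the argininosuccinate synthase with which the proximal tubule makes arginine, fell 5.26-fold, and Kmo of the kynurenine pathway 6.4-fold. The 1 rise was Arg2, mitochondrial arginase, at 3.15-fold.

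Glucose production fell in 12 of 14 genes. Pck1, the cytosolic enzyme that commits carbon to glucose, fell 7.1-fold to 955, 886 and 312 CPM in injured kidneys, against 5062, 4390 and 5834 CPM in sham kidneys, and G6pc, which releases free glucose, fell 12.8-fold. The exceptions were Pck2 and Fbp2, isoenzymes of the same steps, which rose 1.61- and 1.47-fold. Of 31 tested genes of fatty acid oxidation 30 fell and 0 rose, and the list took 0.618, 0.601 and 0.464% of all counts in injured libraries, against 1.48, 1.66 and 1.65% in sham libraries. Of 17 peroxins, which build the peroxisome, 15 fell and 0 rose under TMM, and with library size alone 7 fell and 1 rose.

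The detoxifying families differed. Of 47 P450 genes tested 26 fell and 8 rose (23 and 14 with library size alone), of 12 UDP-glucuronosyltransferases 8 fell and 1 rose (6 and 1), and of 20 aldehyde dehydrogenases 13 fell and 4 rose (11 and 5). Of 17 glutathione S-transferases 8 fell and 2 rose (6 and 3), and of 7 sulfotransferases 2 fell and 4 rose (1 and 5). Among glutathione and redox genes 22 of 32 fell. The gene of catalase was among them, Sod1, the cytosolic superoxide dismutase, fell 2.8-fold and Ggt1, the brush border enzyme that begins glutathione breakdown, 4.79-fold. Among the 5 rises were Slc7a11, the cystine carrier, and Cybb, the catalytic subunit of the phagocyte NADPH oxidase. Cybb rose 5.34-fold to 56.3, 51.3 and 59.6 CPM in injured kidneys, against 12.4, 10.1 and 8.75 CPM in sham kidneys, while Ncf1 and Ncf4, cytosolic subunits of the same oxidase, rose 8.94- and 6.61-fold. Without sham library 1 the log2 fold change of Ncf4 was 3.32 in place of 2.72.

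Of 25 tested cholesterol genes 12 fell and 6 rose, and with library size alone 8 fell and 10 rose, so the list has no single direction. The same held for 20 genes of polyamine, arginine and nitric oxide metabolism, of which 9 fell and 6 rose under TMM and 5 fell and 9 rose with library size alone. Idi1, an isomerase early in sterol synthesis, fell 6.43-fold, with 7.68, 8.36 and 7.71 CPM in injured kidneys, against 43.8, 64.6 and 44.4 CPM in sham kidneys. The cholesterol exporters Abca1 and Abcg1 rose 3.42- and 3.54-fold. Odc1, the first enzyme of polyamine synthesis and an androgen-responsive gene in mouse kidney, fell 7.16-fold to 207, 345 and 193 CPM in injured kidneys, against 1270, 2404 and 1658 CPM in sham kidneys. Of 18 tested NAD and tryptophan genes 11 fell, among them Nampt, the rate-limiting enzyme of NAD salvage, 2.24-fold, and 3 rose. Under library size alone 7 fell and 6 rose. The 3 rises under TMM were Nnmt, which methylates nicotinamide, at 12-fold, the NAD-consuming ectoenzyme gene Cd38 at 2.48-fold, and Aox1 at 2.58-fold, whose call ended without injured library 1 (log2 1.03). Ahcy, which clears S-adenosylhomocysteine, fell 7.66-fold.

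Of 21 tested iron, haem and copper genes 9 rose and 11 fell under TMM, and 9 rose and 8 fell with library size alone. Cp, the ferroxidase ceruloplasmin, rose 7.14-fold to 416, 481 and 409 CPM in injured kidneys, against 71.8, 67.5 and 43.5 CPM in sham kidneys, and Trf, transferrin, rose 4.57-fold. Fth1, the ferritin heavy chain that stores iron, fell 2.45-fold to 2372, 2724 and 2020 CPM in injured kidneys, against 6284, 5572 and 5608 CPM in sham kidneys. Slc39a8, a carrier of zinc, manganese and iron, fell 4.67-fold. Tfrc, the transferrin receptor, had a log2 fold change of -0.55 that was no call without injured library 2 or sham library 2 (log2 -0.43 and -0.4), nor with library size alone.

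More clock genes fell than rose. Of 20, 9 fell and 2 rose under TMM, and 7 fell and 4 rose with library size alone. Hlf, a PAR-type output factor of the clock, fell 4.76-fold, and Npas2, which can stand in for CLOCK, rose 3.26-fold. The sources used here do not give the time of day of tissue collection. Of 15 tested genes known to respond to glucocorticoids or fasting, 9 fell and 4 rose under TMM, and 7 fell and 5 rose with library size alone. Of 20 hypoxia targets 10 fell and 3 rose under TMM, and 4 fell and 7 rose with library size alone, with Car9, a carbonic anhydrase, 7.96-fold lower and Slc2a1, the glucose carrier GLUT1, 1.79-fold higher. Of 29 heat shock and unfolded protein genes 15 fell and 4 rose under TMM, and 6 fell and 8 rose with library size alone. Among the rises were the small heat shock proteins Hspb1 and Hspb8, 6.74- and 2.97-fold. Sesn2, a stress-induced sestrin, fell 5.27-fold.

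Cell division, death and shape genes rose together with the injury markers. Of 22 tested genes of the G2 and M phases 20 rose and 0 fell, and of 19 S phase genes 14 rose and 0 fell. Bub1, a spindle checkpoint kinase, had 2.39, 1.87 and 2.58 CPM in injured kidneys, against 0, 0.277 and 0.179 CPM in sham kidneys, and its log2 fold change of 3.83 became 4.59 without sham library 2. Uhrf1, which carries DNA methylation through replication, rose 12.2-fold, Foxm1, a driver of mitotic genes, 4.18-fold and Cdkn1a, the p21 inhibitor of cyclin-dependent kinases, 3.02-fold. Of 30 genes of apoptosis, necroptosis and pyroptosis 21 rose and 2 fell. Gsdmd, the pore-former of pyroptosis, rose 6.54-fold to 28.7, 29.4 and 30.7 CPM in injured kidneys, against 5.86, 3.27 and 4.46 CPM in sham kidneys, and Mlkl and Ripk3 of necroptosis rose by log2 fold changes of 2.13 and 2.36. The 2 falls were Bid and Casp9 of the mitochondrial apoptosis route. Scaled by library size alone 27 rose and 1 fell, and Casp9 was no call (log2 -0.16, adjusted p = 0.304).

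Of 24 autophagy genes 19 fell and 2 rose under TMM, and 9 fell and 5 rose with library size alone. Atg9a, which brings membrane to the forming autophagosome, fell 2.59-fold, whereas Optn and Atg7 rose 1.45- and 1.43-fold. Of 34 cytoskeleton genes 27 rose and 3 fell. Tmsb10, a thymosin that binds free actin, rose 12.6-fold to 311, 295 and 336 CPM in injured kidneys, against 33.8, 18.9 and 21.9 CPM in sham kidneys. Vil1, the actin bundler of the brush border, fell 2.07-fold and Actn4 by 0.37 on the log2 scale under TMM, against 0.17 in the other direction with library size alone, and its call also ended without sham library 2 (log2 -0.3). Of 24 junction and polarity genes 11 rose and 2 fell. Cdh11, a cadherin of mesenchymal cells, rose 22.4-fold to 80.8, 45 and 80 CPM in injured kidneys, against 3.46, 3.49 and 2.2 CPM in sham kidneys, while the polarity gene Pard3 fell 1.82-fold and Cdh16, the kidney-specific cadherin, 1.52-fold (log2 -0.06 with library size alone). Of 20 genes of the primary cilium 8 fell and 3 rose under TMM, and with library size alone 0 fell and 9 rose, so the list has no direction of its own.

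Matrix genes took a larger share of the transcripts after injury. The 160 genes of the matrix lists took 3.29, 3.24 and 3.56% of all counts in injured libraries, against 0.606, 0.706 and 0.607% in sham libraries. A large part of this gain was Spp1 alone. It made up at most 1.43% of all counts in an injured library, against at most 0.0336% in a sham library. The collagen assembly genes, without Spp1, held 3539 to 4427 CPM in injured and 879 to 902 CPM in sham kidneys. Of 16 matrix metalloproteases 13 rose and 0 fell. Mmp12, the macrophage elastase, rose 26.7-fold to 42.9, 50.4 and 56.6 CPM in injured kidneys, against 1.7, 2.1 and 1.79 CPM in sham kidneys, and Mmp14, the membrane-bound collagenase that activates MMP2, rose 15.8-fold. Their tissue inhibitors diverged. Timp1 rose 41.9-fold to 34.8, 55.8 and 60.7 CPM in injured kidneys, against 1.94, 0.886 and 0.774 CPM in sham kidneys. Timp3, the inhibitor bound to matrix, whose exons overlap Syn3 on the other strand, fell 4.93-fold to 199, 219 and 132 CPM in injured kidneys, against 681, 1052 and 983 CPM in sham kidneys. Timp4 was near the detection limit, with 0.046 to 0.215 CPM in injured and 0.298 to 0.72 CPM in sham kidneys, and its call ended without injured library 1 or 2 and without sham library 1 or 2 (log2 -1.66, -1.86, -2.06 and -1.63 in place of -2.01), and the value was -2.75 without injured library 3.

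Of 25 tested basement membrane genes 15 rose and 3 fell. The general type IV collagen chains Col4a1 and Col4a2 rose by log2 fold changes of 1.58 and 1.56. Col4a3 and Col4a4, chains of the glomerular and some tubular basement membranes, fell 2.48- and 1.93-fold, and Col4a3 had 85.8, 82.8 and 103 CPM in injured kidneys, against 210, 228 and 236 CPM in sham kidneys. Frem1, an extracellular protein of epithelial basement membranes, rose 16.3-fold. Of 17 tested proteoglycan and hyaluronan genes 10 rose and 1 fell. Cd44, the hyaluronan receptor, rose 30.4-fold to 146, 154 and 103 CPM in injured kidneys, against 5.92, 4.1 and 3.21 CPM in sham kidneys. Fbn2, the fibrillin of developing elastic fibres, rose 54.1-fold and Postn, the matricellular periostin, 22.6-fold. Lrrc15, a surface marker of activated fibroblasts, went the other way at low level, with 0.129 to 0.178 CPM in injured and 0.665 to 1.61 CPM in sham kidneys.

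Of 44 tested growth factor ligands 21 rose and 5 fell, and of 45 receptors 15 rose and 14 fell. With library size alone the counts were 29 and 4 for ligands and 27 and 5 for receptors, and the difference between the 2 lists was not tested. Lif, an interleukin-6 family cytokine, rose 25.8-fold to 17.4, 30.5 and 21.4 CPM in injured kidneys, against 0.762, 0.554 and 1.37 CPM in sham kidneys. Inhba, the activin A subunit, rose 22.1-fold and Wnt4, a Wnt ligand of nephron formation, 12.7-fold, with a log2 fold change of 4.28 for Wnt4 without sham library 3 in place of 3.67. The 5 falls were Egf, Fgf1, Bmp7, Vegfa and Bmp4. The call of Bmp4 (log2 -0.45) ended without injured library 3 or sham library 2 (log2 -0.37 and -0.36), and its log2 fold change was 0.09 with library size alone. Vegfa, which maintains capillaries, fell 1.85-fold to 156, 150 and 190 CPM in injured kidneys, against 313, 300 and 303 CPM in sham kidneys, and had a log2 fold change of -0.33 with library size alone. Pdgfrb, the receptor of pericytes and fibroblasts, rose 3.26-fold, and Erbb3, a receptor of the epidermal growth factor family, fell 2.28-fold.

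**Figure D4:**
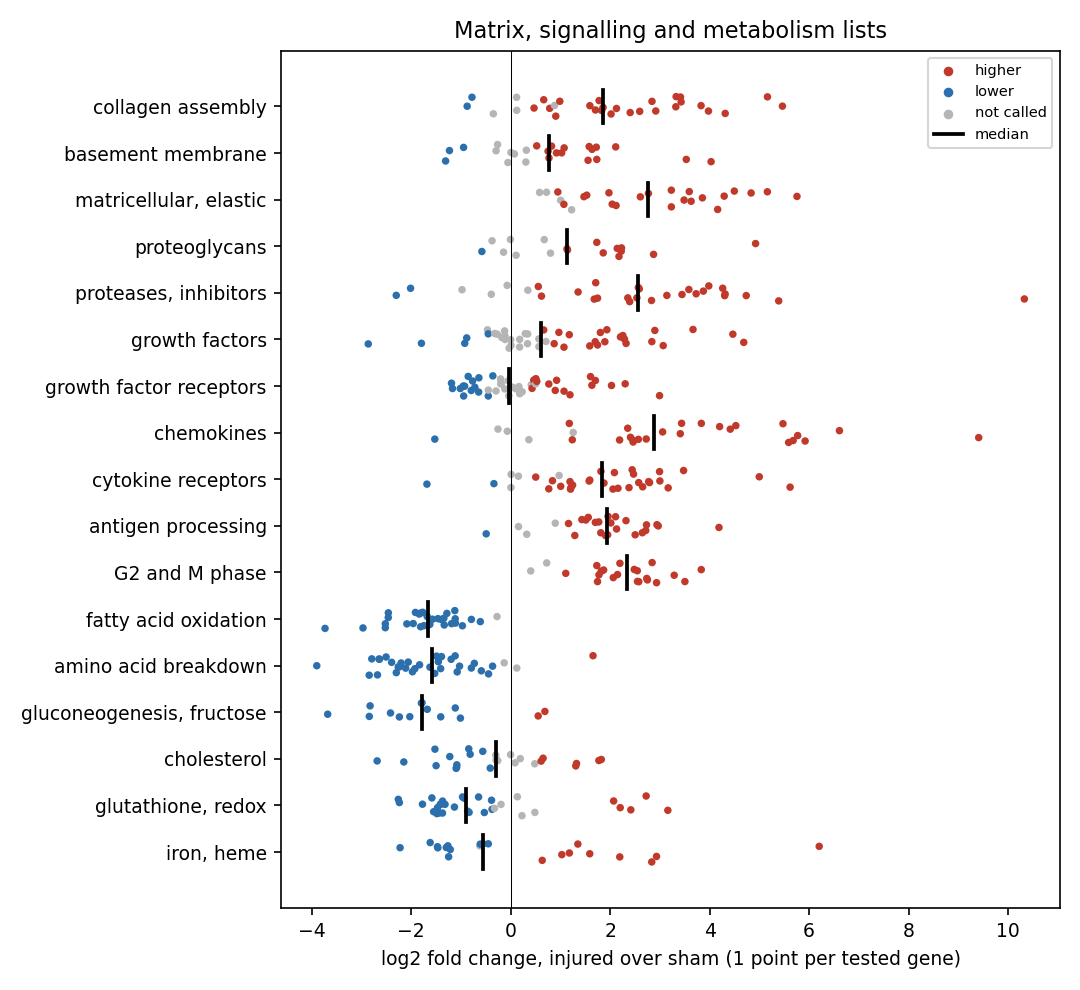
Log2 fold changes, injured over sham, of every tested member of 17 matrix, signalling and metabolism lists, with called rises in red, called falls in blue, genes not called in grey and the median as a black bar. Matrix and immune lists lie right of 0, with medians of 1.86 for collagen assembly and 1.93 for antigen processing, and fatty acid oxidation (-1.66) and amino acid breakdown (-1.58) lie left of it.

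Antigen presentation rose in both classes. Of 26 genes 22 rose and 1 fell, and together they took 1.05, 1.02 and 1.2% of all counts in injured libraries, against 0.248, 0.18 and 0.173% in sham libraries. H2-DMb2, which loads peptides onto class II molecules, rose 18.2-fold to 33.9, 37.3 and 37 CPM in injured kidneys, against 2.81, 1.33 and 1.79 CPM in sham kidneys. B2m, the light chain of class I molecules, rose 2.7-fold to 756, 633 and 960 CPM in injured kidneys, against 233 to 391.8 CPM in sham kidneys. The 1 fall was H2-T22, a non-classical class I gene, whose log2 fold change of -0.49 reversed to 0.06 with library size alone. Of 37 proteasome subunits 26 fell and 3 rose, and the 3 rises were the interferon-inducible catalytic subunits of the immunoproteasome, Psmb8, Psmb9 and Psmb10, at 4.32-, 4.04- and 3.76-fold. Psmb8 had 29.8, 25.9 and 35.6 CPM in injured kidneys, against 10.4, 5.65 and 5.12 CPM in sham kidneys. With library size alone 2 subunits fell and 14 rose, so the falls of the constitutive subunits are relative to TMM scaling.

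Lymphocyte genes rose. Of 18 tested B and plasma cell genes 15 rose and 0 fell, and the constant regions varied between injured libraries. Ighm, the heavy chain of IgM, had 501, 215 and 73.1 CPM in injured kidneys, against 5.51, 28.8 and 6.25 CPM in sham kidneys, with library 1 highest among the injured, library 2 highest among sham, and no overlap between the groups. Its log2 fold change of 4.27 was 3.41 without injured library 1 and 5.5 without sham library 2. Igha, the heavy chain of IgA, had 399, 179 and 502 CPM in injured kidneys, against 90.8, 79.9 and 40.2 CPM in sham kidneys. Igkc rose 5.59-fold.

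Of 23 tested checkpoint and co-stimulation genes 22 rose and 0 fell. Cd200r1, an inhibitory receptor of myeloid cells, rose 18.4-fold, while Cd274, encoding PD-L1, rose 1.77-fold to 6.9, 7.6 and 7.75 CPM in injured kidneys, against 4.75, 3.77 and 4.05 CPM in sham kidneys. Foxp3, the factor of regulatory T cells, had 2.21, 1.69 and 2.41 CPM in injured kidneys, against 0.235, 0 and 0 CPM in sham kidneys. All sham reads of Foxp3 came from library 1, so that no sham count is left without it, and its exons overlap other genes on both strands. The T cell genes Cd3d, Cd3e and Cd3g also moved without sham library 1, by log2 fold changes of 2.97, 2.93 and 3.33 in place of 2.31, 2.10 and 2.64.

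Most genes of the myeloid lists rose. Of 13 tested genes of lipid-laden and scar-associated macrophages 8 rose and 2 fell. Gpnmb, a lysosomal glycoprotein of lipid-laden macrophages, rose 50.4-fold to 10.6, 14.2 and 14.1 CPM in injured kidneys, against 0.117, 0.332 and 0.298 CPM in sham kidneys. Il1rn, the interleukin-1 receptor antagonist, rose 49.1-fold, and Cx3cr1, the fractalkine receptor of mononuclear phagocytes, 14.4-fold. Lpl, lipoprotein lipase, fell 4.85-fold within the lipid-laden list, and Cd36, the scavenger receptor and fatty acid carrier, 5.96-fold against a pattern-recognition list of which 25 of 29 tested genes rose. Mertk, a receptor for dying cells, fell 1.54-fold against the general macrophage list (log2 -0.08 with library size alone). In the complement and coagulation list 21 of 30 tested genes rose and 5 fell. C3, the central complement protein, rose 40.5-fold to 916, 1198 and 804 CPM in injured kidneys, against 34.8, 20.6 and 16.6 CPM in sham kidneys. Cfb, factor B of the alternative pathway, fell 11.1-fold to 1.01, 0.889 and 0.172 CPM in injured kidneys, against 4.4, 11 and 7.74 CPM in sham kidneys, and its exons overlap Gm20547 on the same strand. Of 10 tested neutrophil genes 5 rose and 1 fell.

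Genes with higher expression in male mouse kidney all fell, 10 of 10, and 9 of 10 with library size alone. Together they took 1.25, 1.25 and 0.461% of all counts in injured libraries, against 3.98, 3.46 and 3.41% in sham libraries. Most of this was Kap alone, with 0.961, 0.913 and 0.325% in injured libraries, against 2.84, 2.2 and 2.11% in sham libraries. In both shares injured library 3 stood below the other 2 injured libraries. The same library was lowest in Cyp2e1, a P450 of ethanol and acetone breakdown, with 728, 759 and 122 CPM in injured kidneys, against 2777, 2345 and 2601 CPM in sham kidneys. Of 5 tested genes with higher expression in female kidney 1 rose and 1 fell. Prlr, the prolactin receptor, had 5.43, 9.69 and 56.7 CPM in injured kidneys, against 29.1, 28.7 and 48 CPM in sham kidneys, so injured library 3 lay above every sham library and the other 2 below (adjusted p = 0.484). Slc7a12, a female-biased amino acid carrier, ran the same way with 7.77, 14.1 and 29.1 CPM in injured kidneys, against 22.8, 19.8 and 21.3 CPM in sham kidneys. Xist counts were 8, 1 and 6 in injured and 1, 0 and 0 in sham libraries. The Y-linked Uty was present in all 6 libraries, at 20.9 to 23.9 CPM in injured and 27.5 to 29.9 CPM in sham kidneys, a log2 fold change of -0.39 that reversed to 0.16 with library size alone. That call also ended without injured library 1 or 2 or sham library 1 or 3 (log2 -0.38 to -0.35). Near-absent Xist beside Uty in all 6 libraries is the pattern of male tissue, although the sources used here do not state sex.

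Of 1112 long non-coding RNA genes tested 189 rose (17%) and 248 fell (22.3%), against 31.1% and 29.9% of 14118 protein-coding genes. Under library size alone 376 long non-coding genes rose and 129 fell, so the balance between rises and falls turns with the scaling. G930009F23Rik had 11, 8.31 and 10.5 CPM in injured kidneys, against 0.0586, 0 and 0.0595 CPM in sham kidneys, where it rested on single counts. Zfp469, which the annotation lists as non-coding, rose 21-fold. Gm31600 fell 27.4-fold to 0.23, 0.0889 and 0.129 CPM in injured kidneys, against 2.93, 4.82 and 5 CPM in sham kidneys, and AC158982.1 fell 17.9-fold (log2 -4.16, and -4.77 or -3.57 without injured library 2 or 3). Without sham library 1 the log2 fold change of A530040E14Rik was 4.71 in place of 3.94. BE692007 and A530040E14Rik, which rose 6.68- and 15.4-fold, overlap exons of protein-coding or other genes on the opposite strand, and the sources used here do not say whether counting used strand.

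The 82 cytosolic ribosomal protein genes held 26523 to 27748 CPM in injured and 21971 to 27841 CPM in sham kidneys. Under TMM 28 rose, 3 fell and the median was 0.17, and with library size alone 76 rose and 1 fell. As a share of all counts they took 3.41, 3.49 and 3.57% in injured libraries, against 2.4, 1.99 and 2.03% in sham libraries. Of 75 mitochondrial ribosomal protein genes 55 fell and 3 rose under TMM, and 7 fell and 17 rose with library size alone. Of 45 complex I genes 41 fell under TMM and 12 with library size alone. The 1 rise among them under TMM was Ndufa4l2, a hypoxia-induced relative of a respiratory subunit, with a log2 fold change of 1.40.

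Of 21 tested genes often used as references for quantitative PCR, 2 rose and 10 fell under TMM, and 10 rose and 5 fell with library size alone. Actb rose 3.22-fold to 1929, 1492 and 1853 CPM in injured kidneys, against 675, 535 and 428 CPM in sham kidneys, and B2m rose 2.7-fold. Gapdh, the glycolytic dehydrogenase, fell 1.83-fold to 1570, 1418 and 1527 CPM in injured kidneys, against 3018, 2543 and 2696 CPM in sham kidneys. Sdha and Atp5b of the mitochondria fell 2.82- and 3.12-fold. Tbp and Polr2a, of the transcription machinery, had log2 fold changes of 0.02 each under TMM, with SE of 0.128 and 0.12, and of 0.57 and 0.56 with library size alone. Hprt had 98.3, 96.6 and 104 CPM in injured kidneys, against 103, 86.5 and 89.1 CPM in sham kidneys, overlapping groups under TMM. Gapdh, Sdha, Atp5b, Pgk1 and Cyc1 kept a negative log2 fold change under both scalings, and Eef1a1 and Ywhaz did not. The call of Eef1a1 also ended without injured library 1 or sham library 3 (log2 -0.39 and -0.38).

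**Figure D5:**
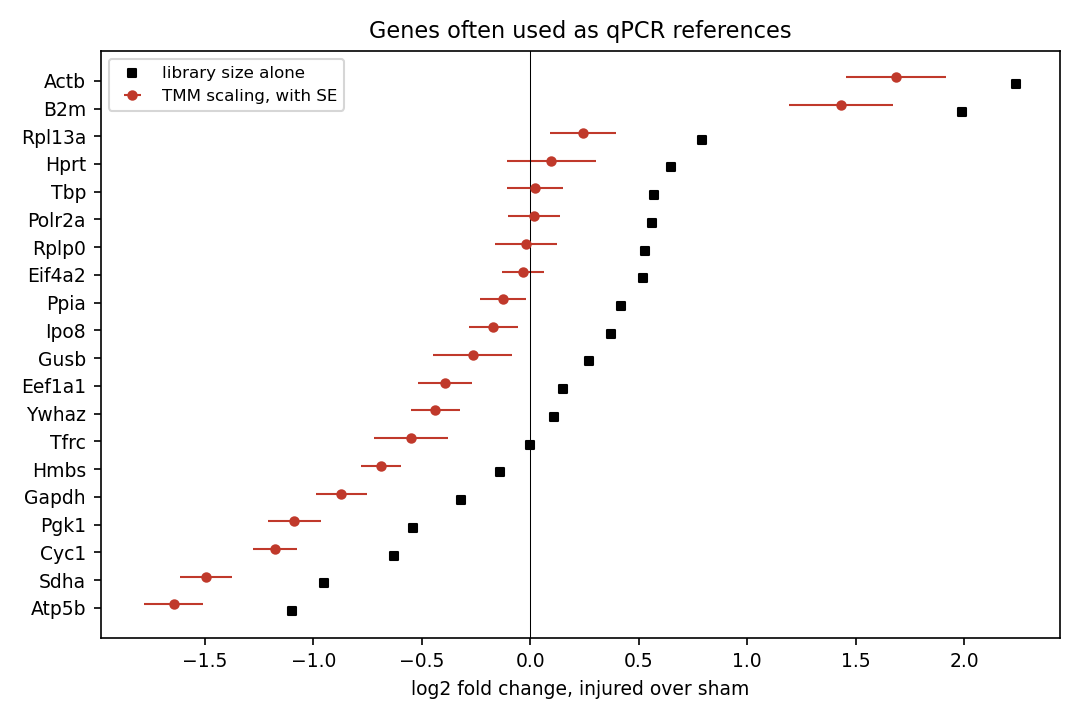
Log2 fold change, injured over sham, of 20 of the 21 tested genes often used as references, with TMM scaling (red, bars are SE) and with library size alone (black squares). Actb lies at 1.69 and Atp5b at -1.64 under TMM, and library size alone moves each gene to the right.

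Levels of markers of tissues that could be carried over with the kidney differed between lists, and many such markers were below the count filter. The sums given here cover only the tested members of each list. The 3 tested urothelial markers of 11 held 3.36 to 4.13 CPM in injured and 1.37 to 1.5 CPM in sham kidneys. The 1 tested adrenal marker of 8 held 3.63 to 4.31 and 3.57 to 3.93 CPM. The 4 tested skeletal muscle markers of 9 held 5.29 to 8.74 and 16.8 to 27 CPM. Of 4 tested skeletal muscle markers 2 rose and 1 fell, with log2 fold changes from -2.55 to 7.33. Most of their sum in sham kidneys was Pvalb, at 25.3, 16.2 and 18.7 CPM, which the distal convoluted tubule also expresses. Its log2 fold change was -2.55, and -3.22 without injured library 3. Red cell markers ranged from 32.2 to 100 CPM in injured and from 28.5 to 136 CPM in sham kidneys. The 1 tested adipocyte marker of 8 held 40.8 to 49.7 CPM in injured and 30.9 to 51 CPM in sham kidneys. The 8 tested liver and plasma protein genes together held 200 to 241 CPM in injured and 215 to 247 CPM in sham kidneys. Of these 2 rose and 4 fell, among them Alb, albumin, with 0.552, 0.489 and 0.473 CPM in injured kidneys, against 8.27, 5.48 and 12.9 CPM in sham kidneys. Nerve and Schwann cell markers held 40.9 to 47.6 CPM in injured and 20.7 to 28 CPM in sham kidneys, with 4 of 7 tested members risen. Ngfr, the low-affinity nerve growth factor receptor, rose 6.99-fold. The part of these tissues in the changes above was not tested. Pfkfb3 itself, the glycolytic regulator deleted in the third group of the series, had 36.2, 34.4 and 25.3 CPM in injured kidneys, against 20, 20.2 and 21.9 CPM in sham kidneys (log2 0.63, adjusted p = 0.00685).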

How the data were processed

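The authors deposited 1 table of raw read counts per Ensembl gene, with 1 column per library, from whole-kidney total RNA prepared with a NEBNext Ultra RNA kit, per the labels' protocols. Per the submitters' processing notes the genome build was mm10 and DESeq2 1.16.1 was used; the sources used here name no aligner or counter and do not say whether strand was used. Of 56305 identifiers 55227 matched GENCODE M21, which gave symbols, positions and exon lengths, and 0 columns of per-sample values were left unused. With edgeR 4.0.16 in R 4.3.3, genes passed filterByExpr (15974 tested), libraries were scaled by TMM, and all 9 libraries entered 1 quasi-likelihood model whose terms are the 3 groups (6 residual degrees of freedom). Injured minus sham wild-type was tested two-sided. P-values were adjusted by Benjamini-Hochberg across the whole set of tested genes, with a threshold of 0.05. CPM are per TMM-scaled library size, log2 fold changes carry edgeR's shrinkage by its default prior count, and floors cover counting error only. Each SE was derived from the log2 fold change and its quasi-likelihood F statistic, and so includes the spread of libraries within groups. The test was tried on simulated data with known changes, in which far fewer genes were changed than were called here. It recovered 25% of changed genes at 1.5-fold, 58% at 2-fold, 96% at 4-fold and 98% at 8-fold. False calls made up 5.41 to 7.43% of the calls in 2 simulated runs.

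The comparison, the gene lists and the rule for named genes were chosen with earlier results of these data known. The rule took the 10 largest gains and 10 largest losses per kilobase, the 8 largest rises and 8 largest falls at 20 CPM or more, the largest rise and fall in each list at 1 CPM or more with members that went against their list, genes at 0 in 1 group, the 5 largest rises and falls of long non-coding RNA genes at 2 CPM or more, Pfkfb3 and the reference genes. Other names were chosen after their values were seen. A few genes that the rule or a list holds are not reported here by name or drawn with a label. Of the 246 genes the rule named, 67 share exon positions with another gene, and reads of such genes may have been split or shared by the counting. Alternatives were library size alone, DESeq2 1.42.0 (its size factors, and its Wald test), scaling without the 20 highest genes, 2 other filters on low counts, limma 3.58.1 voom, a fit of the 6 wild-type libraries, the replicate number as a block and leaving out each library. Replicates of a group differed by more than sampling noise, with a chi-square per degree of freedom of 11.6 to 26.9, so none was counted as a duplicate.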

Additional observations from a re-analysis of the deposited data

How the results depend on the processing

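The number of called genes was 9297, and stayed within 1.5 times that count in each alternative run: 9307 with DESeq2's size factors, 9327 with DESeq2's Wald test, 9451 with limma voom, 9657 in a fit of the 6 wild-type libraries, 9294 without the 20 highest genes in the scaling, 9475 with no filter and 8648 at 1 CPM or more. Library size alone changed the split, with 8915 risen and 1953 fallen genes and a median log2 fold change of 0.57 in place of 0.03; the median was 0.08 without the 20 highest genes, 0.1 with no filter and 0.02 at 1 CPM or more. Leaving out 1 library gave 8287 to 8790 called genes, 4232 to 4409 risen, 3991 to 4381 fallen, and a median of 0.02 to 0.05. With the replicate block 8885 genes were called, 4498 risen and 4387 fallen. Same-numbered libraries had correlations of 0.00731, 0.0578 and -0.0322 of their deviations from group means. Libraries of unlike number had correlations from -0.0635 to 0.0517. No pairing by number was seen, but so few libraries cannot show whether the samples were paired. Of the 246 genes named by the rule, 237 were called. Among all 246, 48 lost their call or turned in some alternative, 43 of them with library size alone and 23 when 1 library was left out. These counts include genes that were no call under TMM, such as Ipo8. With library size alone 15 genes reversed, to log2 fold changes of 0.21 for Il13ra1, 0.27 for Ikbkg, 0.53 for Rplp0, 0.37 for Ipo8, 0.17 for Actn4, 0.19 for Tbk1, 0.25 for Cyld, 0.09 for Bmp4, 0.15 for Eef1a1, 0.42 for Ppia, 0.11 for Ywhaz, 0.52 for Eif4a2, 0.06 for H2-T22, 0.21 for Ccnd3 and 0.16 for Uty. The cause of these shifts is the scaling itself, since it was the choice that differed. Genes under 1 CPM rest on few counts, which limits the precision of their fold changes.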
